A study of Mus musculus with 3 samples.

Results

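Interferon-stimulated genes, the genes that cells switch on after interferon binds its receptors, were examined in the distal colon of mice with dextran sulfate sodium (DSS) colitis. Their 39 members were taken from known interferon targets, not by a threshold on the measured values. Earlier results of these data were known when they were chosen. A gene was counted as measured when a probe set of the array carried its symbol and no other, and where a gene had several, the brightest on average was taken. In this way 33 of the 39 members were measured, among 19938 genes in all. Another 5 members shared their probe set with other genes and are given separately, and Ifi44 had no probe set in the annotation used here.

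Gene expression was measured in adult male BALB/c mice on 3 arrays, 1 per group, so that no difference between groups has an error or a p-value. WT normal was RNA pooled from 4 wild-type mice that drank plain water, WT colitis was pooled from 3 wild-type mice given 3% DSS, and IL-4Rα-/- colitis was pooled from 6 mice given the same DSS that lacked the IL-4 receptor α chain in all cells through the germline allele Il4ra tm1Sz. The wild-type mice were littermates of the IL-4Rα-/- mice, and all colons were taken on day 7. IL-4Rα-/- mice without DSS were not analysed here, so an effect of the genotype alone cannot be told apart from its effect during colitis. The disease activity index of the pooled mice was 0 in WT normal, 3 to 4 in WT colitis and 0 to 3 in IL-4Rα-/- colitis.

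Type I and type III interferons act through the kinases Jak1 and Tyk2 on a complex that includes Stat2 and Irf9 and binds the interferon-stimulated response element (ISRE) in promoters. Interferon γ acts through the γ-activated sequence (GAS), and Irf1 belongs to its early targets. In the colon, epithelial cells and leukocytes both respond to interferon, and a low tonic level of these genes is known in the healthy gut.

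The promoters of some members are shown because they carry these elements within short windows before the annotated start of the gene. Windows of 300 bases, 250 before and 50 after each start, came from RefSeq (build GRCm38.p6), in which 29 of the 39 members had at least 1 window. The ISRE core was searched as GAAA, any 2 bases and GAAA, or on the other strand as TTTC, any 2 bases and TTTC, and matches may overlap. The GAS core was searched as TTCNNNGAA, which reads the same on both strands. Sequences are written 5′ to 3′ on the strand of the gene, with ISRE cores, or for Irf1 the GAS core, in capitals. The first is the whole 250 bases before the start of Ifit3, the member with the greatest difference between the colitis arrays. The next 3 belong to members that were more than 2-fold lower in IL-4Rα-/- colitis, and the last 4 to members that were not.
Ifit3, chr19:34583279-34583528, plus strand: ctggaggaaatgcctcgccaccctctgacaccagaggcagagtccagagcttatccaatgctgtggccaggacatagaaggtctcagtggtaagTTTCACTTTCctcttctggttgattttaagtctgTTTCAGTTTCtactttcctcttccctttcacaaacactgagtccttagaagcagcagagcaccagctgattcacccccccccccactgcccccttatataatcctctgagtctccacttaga
Ifit1, chr19:34640774-34640823, plus strand: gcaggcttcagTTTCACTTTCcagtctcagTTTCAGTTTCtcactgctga
Rsad2, chr12:26456543-26456592, minus strand: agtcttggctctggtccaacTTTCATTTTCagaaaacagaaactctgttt
Oas3, chr5:120777705-120777754, minus strand: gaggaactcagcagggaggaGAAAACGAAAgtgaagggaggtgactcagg
Bst2, chr8:71537570-71537619, minus strand: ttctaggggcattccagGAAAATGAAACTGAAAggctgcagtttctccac
Irgm1, chr11:48871421-48871470, minus strand: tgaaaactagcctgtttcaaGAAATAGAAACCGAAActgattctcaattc
Gbp3, chr3:142559982-142560031, plus strand: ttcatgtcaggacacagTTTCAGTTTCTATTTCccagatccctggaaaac
Irf1, chr11:53769903-53769952, plus strand: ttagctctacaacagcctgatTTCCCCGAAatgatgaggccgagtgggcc

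An ISRE core was found in the windows of 14 of the 29 members and of 3.99% of all 27025 genes with a window (3.44% of 32851 windows). A GAS core was found for 8 of the 29 members and 9.55% of all genes (8.3% of windows). Ifit3 and Ifit1 each held a pair of ISRE cores on the same strand, at -156 to -147 and -122 to -113 in Ifit3 and at -104 to -95 and -85 to -76 in Ifit1, counted from the start site as 0. In Bst2, Irgm1 and Gbp3 a pair of cores overlapped in 1 run. Irf1 had a GAS core at -90 to -82 and no ISRE core in its window. These matches are letters in a window, and binding of any factor was not measured.

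**Figure D1:**
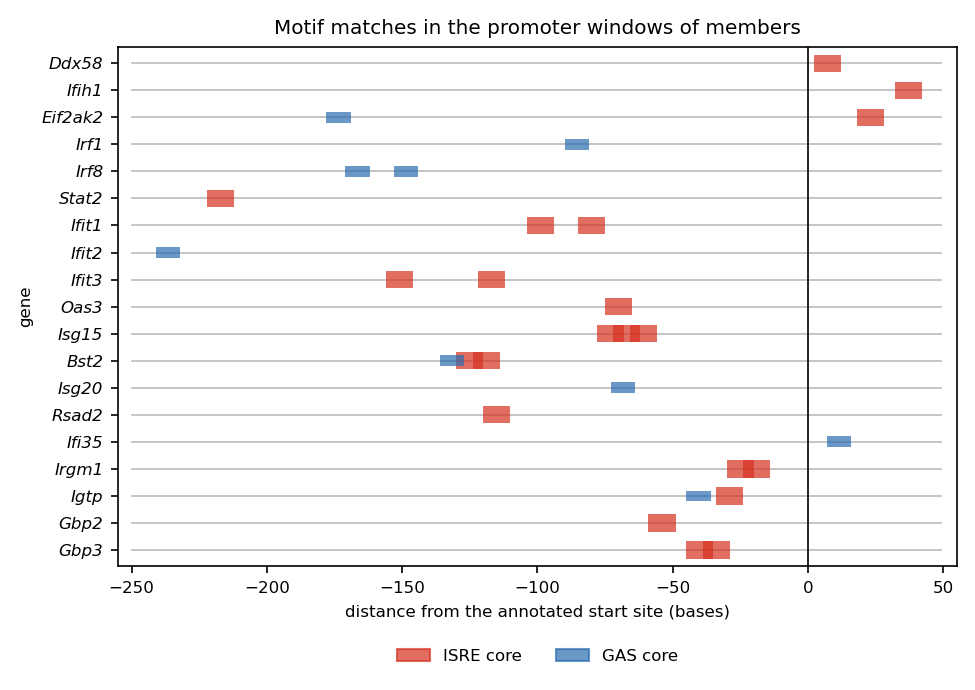
Positions of ISRE cores (red) and GAS cores (blue) in the promoter windows of the 19 members with a match. The x axis is the distance from the annotated start site in bases, each row is a gene and each box a match. Ifit1 and Ifit3 each show a pair of separate ISRE cores before the start, while those of Ddx58, Ifih1 and Eif2ak2 lie after it.

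Signals are on a log2 scale, as deposited, and their differences are log2 differences. Where 3 signals follow the name of a gene, the first is that of WT normal, the second that of WT colitis and the third that of the IL-4Rα-/- colitis array. A difference of 1 is 2-fold, and genes past it are counted as higher or lower. As a guide to background, 1210 probe sets for olfactory and vomeronasal receptors had a median of 2.44, and members with a signal below 4 are given without a fold. Il4ra, the targeted gene, had 5.69 in WT normal, then 6.63 in WT colitis against 4.76 in IL-4Rα-/- colitis, lowest on the array of its label. Values identical across the 3 arrays made up 46.9% of all probe sets, and where 2 of the 3 values were equal the WT colitis array was the odd one for 5543 of 9443 probe sets. Markers of colonic epithelium were present, with Epcam at 10.07 to 10.28 and Muc2 at 12.71 to 12.88, and genes of the exocrine pancreas stood out on the WT normal array (median difference of WT colitis from it, -4.08 over 4 genes).

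The question of the first comparison was which genes DSS colitis changed in wild-type mice. Interferon-stimulated genes mostly had higher signals with colitis, by small amounts. Of the 33 measured members, 28 were higher in WT colitis, 4 were equal and 1, Isg20, was lower. Of all genes, 35.8% were higher, 52.3% equal and 12% lower. The members' median difference was 0.51 against 0.00 over all genes. Past 2-fold, 2 members were higher, where 1.16% of all genes were, and 0 were lower, where 0.456% were. Among the 11093 genes with a mean signal of at least 4, 1.85% were more than 2-fold higher. The 2 members were Ifit2 and Ifit3.

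In the comparison of IL-4Rα-/- colitis with WT colitis, which differ in the receptor, the members were lower. The pools also differed in severity, with a mean disease activity index of 1 in IL-4Rα-/- colitis and 3.67 in WT colitis. The part of severity in the differences was not tested. Of the 33, 30 were lower, 2 were equal and 1, Irf8, was higher by 0.01, where 37.3% of all genes were lower. The members had a median difference of -0.53 against 0.00 over all genes. More than 2-fold lower were 10 members, or 30.3%, where 0.908% of all genes and 1.43% of those with a mean signal of at least 4 were. The members were chosen with earlier results of these data known, so their share is not that of an independent list. Among 56 other interferon-induced genes, 4 were more than 2-fold lower. More than 2-fold higher were 0 members, where 0.271% of all genes were. The 10 were Ifit3, Oas2, Rsad2, Usp18, Ifit1, Ifit2, Irf7, Rtp4, Oas3 and Oasl2, and they ranked from 35 to 143 when all 19938 genes were ordered from the lowest difference.

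**Figure D2:**
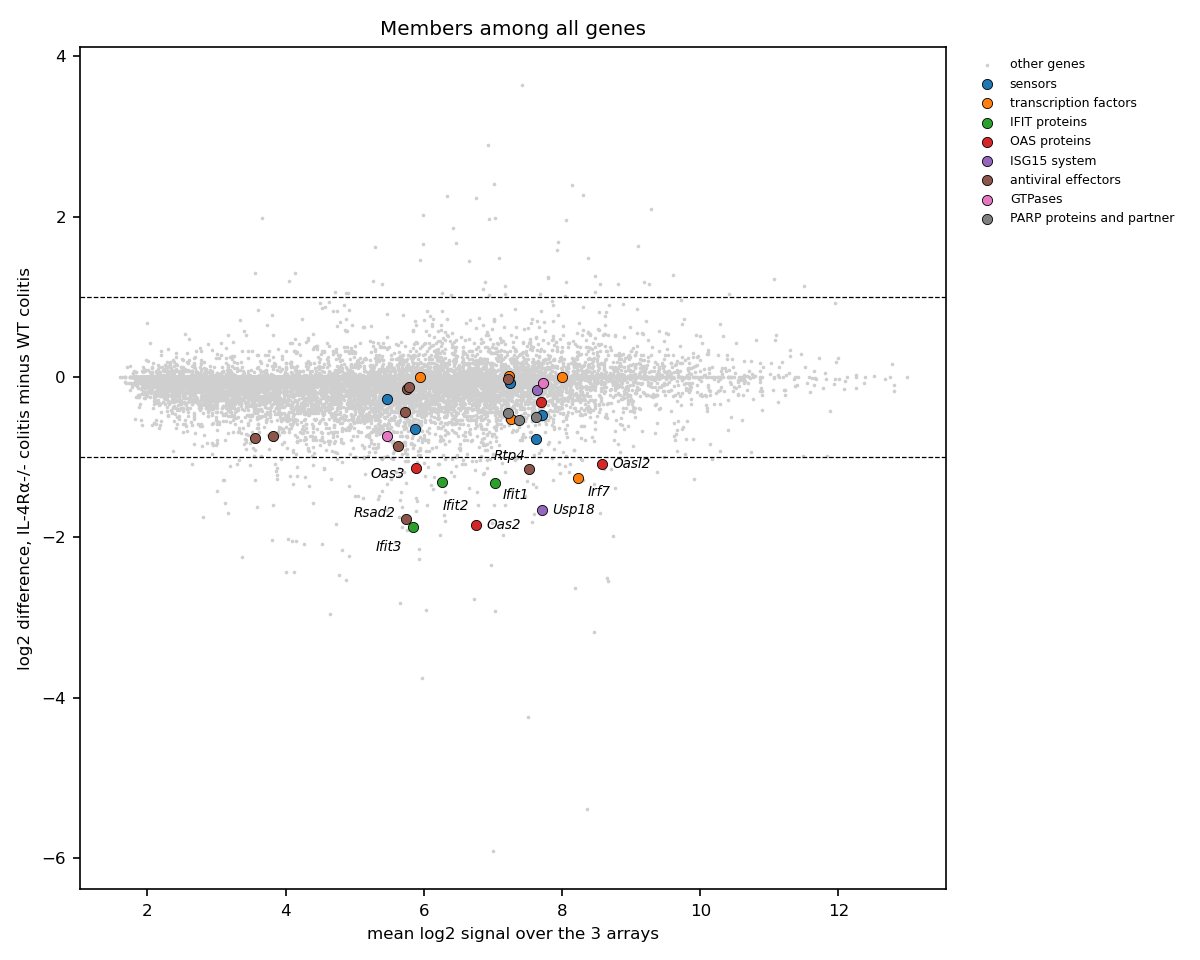
Log2 difference of IL-4Rα-/- colitis from WT colitis (y axis) against the mean log2 signal over the 3 arrays (x axis) for each of 19938 genes, with the 33 measured members coloured by role and dashed lines at 2-fold. The 10 named members lie below the lower line, down to -1.87 for Ifit3, and the other 23 lie between it and 0.01.

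Against WT normal, IL-4Rα-/- colitis had 17 members lower, 9 equal and 7 higher (51.5%, 27.3% and 21.2%, where 17.9%, 65.8% and 16.4% of all genes were), with a median difference of -0.06 against 0.00 over all genes. More than 2-fold lower were 2 members, Irf7 and Rsad2, where 0.336% of all genes were, and 0 were more than 2-fold higher, where 0.186% were. WT colitis had the highest signal and IL-4Rα-/- colitis the lowest for 15 of the 33 members, or 45.5%, a pattern that 5.49% of all genes had. For 6 members, Dtx3l, Gbp3, Ifit2, Parp14, Parp9 and Zbp1, IL-4Rα-/- colitis lay between the wild-type arrays with WT colitis highest (18.2% of members and 7.38% of all genes). For 7 members it equalled WT normal while WT colitis differed, which was as common among all genes (21.2% and 20%). Each pair of comparisons shares an array, so these orders are a description of 3 arrays and not separate findings.

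**Figure D3:**
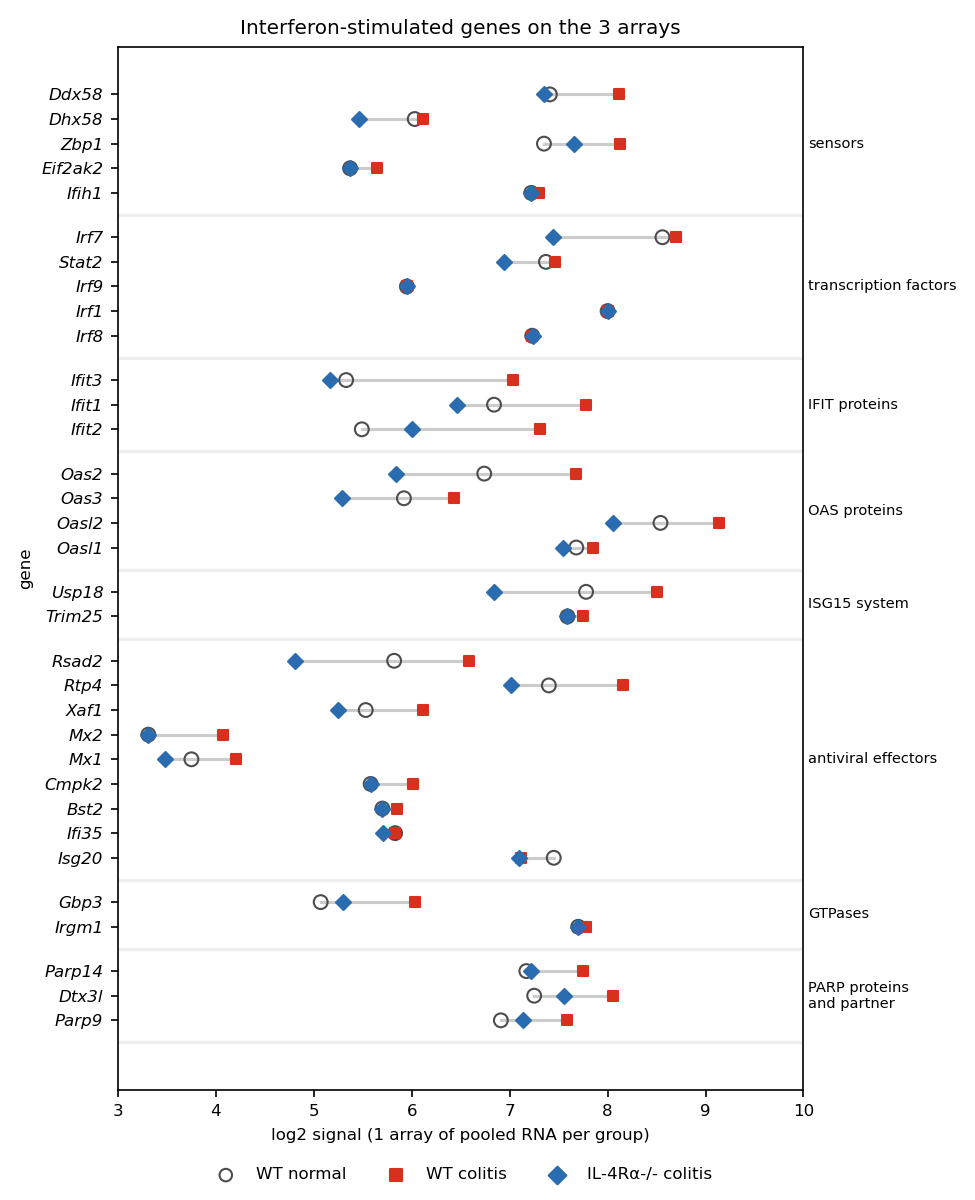
Log2 signal (x axis) of the 33 measured members on the WT normal (open circles), WT colitis (red squares) and IL-4Rα-/- colitis (blue diamonds) arrays, 1 array of pooled RNA each, grouped by role, with grey lines from the lowest to the highest value. For 28 genes (84.8%) the WT colitis value is the highest of the 3, where 30.4% of all genes have this order. For 17 (51.5%), among them Irf7 and Rsad2, the IL-4Rα-/- colitis value is below that of both wild-type arrays. Of all genes, 12.3% have it lowest.

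The IFIT proteins bind viral RNA and block its translation, and all 3 measured members of the family were more than 2-fold below WT colitis in IL-4Rα-/- colitis. Ifit3 had a signal of 5.33 in WT normal, then 7.03 in WT colitis against 5.16 in IL-4Rα-/- colitis, 3.25-fold up with colitis in wild-type mice and 3.66-fold apart between the colitis arrays. Ifit2 had 5.49, 7.31 and 6.00 on the same arrays, a difference of 1.82 in colitis and of -1.31 between the colitis arrays. Ifit1 had 6.84, 7.78 and 6.46. Ifit2 thus stayed 0.51 above WT normal in IL-4Rα-/- colitis, whereas Ifit1 and Ifit3 lay 0.38 and 0.17 below it. Ifit3b, the near-identical neighbour of Ifit3 and no member, had dim signals of 2.43, 2.86 and 2.47. How far the probes of Ifit3 and Ifit3b share transcripts is not known here. Ifit1bl2, also no member, had dim signals of 2.97, 3.47 and 3.06. Between the colitis arrays Ifit3b differed by -0.39 and Ifit1bl2 by -0.41, so neither was past 2-fold.

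Catalytically active OAS proteins make 2′-5′ oligoadenylates that switch on RNase L. Of the 4 members in the OAS family, 3 were more than 2-fold below WT colitis in IL-4Rα-/- colitis. Another 7 OAS genes on the array were not members, and 0 of those 7 were past 2-fold lower, so the family as a whole had 3 of 11 with a median difference of -0.31 between the colitis arrays. Of the 7, Oas1b was exactly at the threshold (4.79, 5.63 and 4.63) and Oas1a had a difference of -0.60, while the other 5 had 0.00. Among these 5, Oas1c had a background signal of 2.72 on all 3 arrays, so the family median includes a gene too dim to be read. Oas2 had 6.74 in WT normal, then 7.68 in WT colitis against 5.84 in IL-4Rα-/- colitis, 3.58-fold under WT colitis and 0.90 below WT normal on the log2 scale. Oas3 had 5.92, 6.43 and 5.29. Oasl2, an OAS-like protein with ubiquitin-like domains, had 8.54, 9.14 and 8.05. All 4 members were lowest in IL-4Rα-/- colitis, but Oasl1, a translational inhibitor of Irf7, differed little, with 7.68, 7.85 and 7.54.

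Isg15 is a ubiquitin-like protein that is coupled to other proteins, Usp18 removes it and also blocks signalling at the type I receptor, and Trim25 activates the sensor RIG-I. Usp18 had 7.78 in WT normal, then 8.50 in WT colitis against 6.84 in IL-4Rα-/- colitis, 3.16-fold under WT colitis. Trim25 had 7.59, 7.75 and 7.59. Isg15 itself was represented by a probe set shared with Gm9706, with signals of 3.50, 3.71 and 3.50, close to background on every array. No fold is given for it. Of the enzymes that couple Isg15, which were not members, the activating enzyme Uba7 had 5.71 on all 3 arrays and the conjugating enzyme Ube2l6 had 6.09, 6.44 and 6.09.

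Among 9 measured antiviral effectors, Rsad2 and Rtp4 were more than 2-fold below WT colitis in IL-4Rα-/- colitis. Rsad2, viperin, which makes a chain-terminating nucleotide, had 5.82 in WT normal, then 6.58 in WT colitis against 4.81 in IL-4Rα-/- colitis, 3.41-fold under WT colitis and 1.01 below WT normal on the log2 scale. Cmpk2, a mitochondrial nucleotide kinase and the genomic neighbour of Rsad2, had 5.58, 6.01 and 5.58, a difference of -0.43 between the colitis arrays. Rtp4, a receptor chaperone, had 7.40, 8.16 and 7.01. The neighbours Rsad2 and Cmpk2 thus differed in size, and on the IL-4Rα-/- colitis array Rsad2 lay below WT normal while Cmpk2 equalled it. Xaf1, an antagonist of apoptosis inhibitors, had 5.53, 6.11 and 5.25, a difference of -0.86 between the colitis arrays. Mx1 (3.75, 4.21 and 3.48) and Mx2 (3.31, 4.07 and 3.31), genes of the Mx GTPase family, were near background. Bst2, tetherin, differed by -0.15 between the colitis arrays, and Ifi35 and the exonuclease Isg20 by -0.12 and -0.02.

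The transcription factors that drive these genes had a median difference of 0.00 between the colitis arrays, and 1 of the 5 was past 2-fold. Irf7, which amplifies type I interferon responses, had 8.56 in WT normal, then 8.70 in WT colitis against 7.44 in IL-4Rα-/- colitis, 2.39-fold under WT colitis and 1.12 below WT normal on the log2 scale. Stat2 had 7.37, 7.46 and 6.94. Irf7 and Stat2 therefore differed little between the wild-type arrays and were lowest in IL-4Rα-/- colitis. Irf9, the DNA-binding partner of Stat2, had 5.95 on all 3 arrays, and Irf1 had 8.00 on all 3. Irf8, a factor of myeloid development, had 7.23, 7.23 and 7.24. Identical values to 2 decimals on arrays of different mice are common in this table, as given above, and how they arose was not tested.

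The sensors detect viral nucleic acid in the cytoplasm, and 0 of the 5 passed 2-fold, with a median of -0.47 between the colitis arrays. Ddx58, RIG-I, had 7.41 in WT normal, then 8.12 in WT colitis against 7.35 in IL-4Rα-/- colitis. Dhx58, the related helicase LGP2, had 6.03, 6.11 and 5.46. Ddx58 was thus higher in WT colitis and back near WT normal in IL-4Rα-/- colitis, whereas Dhx58 differed little in WT colitis and was lower in IL-4Rα-/- colitis than on both other arrays. Zbp1, which senses Z-form nucleic acid and triggers necroptosis, had 7.35, 8.13 and 7.66. Eif2ak2, the kinase PKR, and Ifih1, MDA5, differed by -0.27 and -0.08 between the colitis arrays.

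Parp9, Parp14 and Dtx3l, ADP-ribosyltransferases and the E3 ligase that partners Parp9, moved within a narrow range. They were higher in WT colitis by 0.58 to 0.80 and showed differences of -0.53 to -0.45 between the colitis arrays, and all 3 stayed above WT normal. Dtx3l, for example, had 7.25 in WT normal, then 8.05 in WT colitis against 7.55 in IL-4Rα-/- colitis. The guanylate-binding proteins and immunity-related GTPases, which attack vacuoles of intracellular pathogens and respond strongly to interferon γ, had 0 of 2 measured members past 2-fold between the colitis arrays. With 8 further genes of these families that were not members, 0 of 10 were past 2-fold and the median difference was -0.41, the lowest being that of Gbp9, -0.87. Gbp3 had 5.07, 6.03 and 5.30, and Irgm1 had 7.70, 7.78 and 7.70. Of the 4 GTPases on shared probe sets, Gbp2 (with Gbp2b) had 6.76, 7.84 and 7.38, a difference of 1.08 in colitis, Igtp (with Irgm2) had 6.59, 7.12 and 6.78, and Gbp6 (with 5 other Gbp genes) had 6.17, 6.82 and 6.17. Ifi47 (with Olfr56) had 5.58, 5.75 and 5.66. All 4 were highest in WT colitis and more than 2-fold lower in IL-4Rα-/- colitis in 0 cases.

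The motifs were found in both kinds of member. Of the 10 members more than 2-fold below WT colitis in IL-4Rα-/- colitis, 7 had a promoter window, and 4 of the 7 (Ifit1, Ifit3, Oas3 and Rsad2) held an ISRE core. Of the other 23 measured members, 17 had a window and 7 of the 17 held one (Bst2, Ddx58, Eif2ak2, Gbp3, Ifih1, Irgm1 and Stat2). A GAS core was found in 1 of the 7, Ifit2, and in 6 of the 17. Bst2, with a pair of overlapping ISRE cores and a GAS core, had signals of 5.70 in WT normal, then 5.85 in WT colitis against 5.70 in IL-4Rα-/- colitis, so that a core in the window was found in members with and without a difference past 2-fold.

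Upstream of these genes, most transcripts of the interferons themselves were near background. Of 16 measured interferon genes, 13 had a signal below 4 on every array, and 0 of the 16 were past 2-fold in any comparison. The 3 others were Ifnl2, Ifna5 and Ifnz. Ifnb1, interferon β, had 2.29 on all 3 arrays and Ifng, interferon γ, had 2.95 on all 3. Ifnl2, a type III interferon, had 4.98 in WT normal, then 5.29 in WT colitis against 5.17 in IL-4Rα-/- colitis. Another probe set for Ifnl genes, which carried several symbols, was dimmer, at 3.73 to 4.11. Ifna5, an interferon α, had 5.44, 5.18 and 5.23, and Ifnz, interferon ζ, had 6.00 on all 3 arrays. A further 18 Ifnz probe sets with several symbols ranged from 3.76 to 5.90, and all 18 had equal values on the 3 arrays. Signals near background do not show that interferon was absent from the tissue.

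The receptor chains were measured above background. Of 9 measured receptors and kinases, 1 was more than 2-fold above WT normal in WT colitis and 0 were past 2-fold between the colitis arrays. Ifnar2, the signalling chain of the type I receptor, had 6.58 in WT normal, then 7.60 in WT colitis against 6.73 in IL-4Rα-/- colitis. Its partner Ifnar1 had 5.66, 5.75 and 5.66. The chains of the interferon γ receptor, Ifngr1 (8.76 to 9.01) and Ifngr2 (9.82 to 9.84), differed by 0.25 or less on the log2 scale, and those of the type III receptor, Ifnlr1 at 4.69 and Il10rb at 7.71, had the same value on all arrays.

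A list of 10 regulators held 8 inhibitors of interferon signalling besides Uba7 and Ube2l6 given above, and 1 of the 10 was more than 2-fold higher in WT colitis. It was Socs3, a feedback inhibitor of Stat signalling, with 5.15 in WT normal, then 6.48 in WT colitis against 5.57 in IL-4Rα-/- colitis. Of 11 genes of nucleic acid sensing outside the members, the endosomal RNA receptors Tlr7 (2.78, 3.81 and 3.12) and Tlr8 (3.02, 4.22 and 3.34) were more than 2-fold higher in WT colitis, from background levels. Between the colitis arrays, 0 of the 10 and 0 of the 11 were past 2-fold.

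Among 56 other interferon-induced genes, 3 were more than 2-fold above WT normal in WT colitis and 4 were more than 2-fold below WT colitis in IL-4Rα-/- colitis, with medians of 0.29 and -0.33. Ifitm1, a membrane protein that blocks viral entry, had 7.18 in WT normal, then 8.96 in WT colitis against 7.76 in IL-4Rα-/- colitis. Slfn4, a myeloid Schlafen protein, had 8.07, 8.45 and 7.36. Both genes were highest in WT colitis, but in IL-4Rα-/- colitis Ifitm1 stayed above WT normal and Slfn4 lay below it. Ddx60, a helicase, had 6.81, 7.83 and 6.76, and Sp100, a nuclear body protein, had 6.57, 7.67 and 6.65.

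Markers of several cell types moved the same way as the members. In whole colon, fewer cells of a type and less RNA per cell cannot be told apart. All 7 general leukocyte markers, such as Ptprc (6.49, 7.03 and 6.49), were highest in WT colitis of the 3 arrays, with medians of 0.54 and -0.54, and their summed linear signal was 747 in WT normal, 1071 in WT colitis against 762 in IL-4Rα-/- colitis. The median of the 33 members, -0.53 between the colitis arrays, was close to that of the leukocyte markers, but the ranges differed. The leukocyte markers ran from -0.63 to -0.29, with 0 of 7 more than 2-fold lower. The members ran from -1.87 to 0.01, with 10 of 33 more than 2-fold lower. In IL-4Rα-/- colitis, 17 of the 33 members lay below WT normal. Of the 7 leukocyte markers 0 did, with 2 above WT normal and the others equal to it. Among other markers, 4 of 7 endothelial, 4 of 7 fibroblast, 2 of 3 B cell and 6 of 12 epithelial markers lay below it. So did 2 of 12 macrophage and 1 of 8 neutrophil markers. Medians between the colitis arrays were -0.21 for 12 macrophage, -0.62 for 8 neutrophil and -0.69 for 3 B cell markers. They were -0.62 for 7 endothelial, -0.80 for 7 fibroblast and 0.07 for 12 epithelial markers. Of the macrophage markers, 9 were lower and 1, Cd14, was higher, by 0.50. Of the epithelial markers, 4 were lower and 7 higher, and 1 of these, Aqp8, was more than 2-fold higher, by 1.64. More than 2-fold lower were 3 of the 7 fibroblast markers, among them Dcn with a difference of -1.27, and 1 of the 7 endothelial markers. Of the 8 neutrophil markers, 2 were more than 2-fold lower, S100a8 (2.62, 4.27 and 2.58) and Mmp9 (3.45, 4.58 and 3.50). Both were near background, and 4 of the 8 were below 4 on every array. The part of these shifts in the members' differences was not tested.

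Markers of other lymphoid and dendritic cells were often too dim to be read. Of 5 markers of plasmacytoid dendritic cells, which are potent producers of type I interferon, 4 were below 4 on every array, and Siglech, their defining receptor, had 2.69 on all 3. Of 13 T cell and NK cell markers, 6 were below 4 on every array and 7 had 3 equal values, so their median of 0.00 in both comparisons says little. Cd4 differed in the direction of the members, by 0.46 and -0.46, and was the only 1 of the 13 with a negative second difference. For 4 of the 13 the second difference was positive: Cd3g (0.15), Cd8a (0.38), Gzma (0.69) and Gzmb (0.84). The granzymes Gzma (4.26, 4.69 and 5.38) and Gzmb (4.30, 4.79 and 5.63) on that list were highest in IL-4Rα-/- colitis, by 1.12 and 1.33 over WT normal. The 8 reference genes had medians of -0.02 in both comparisons.

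**Figure D4:**
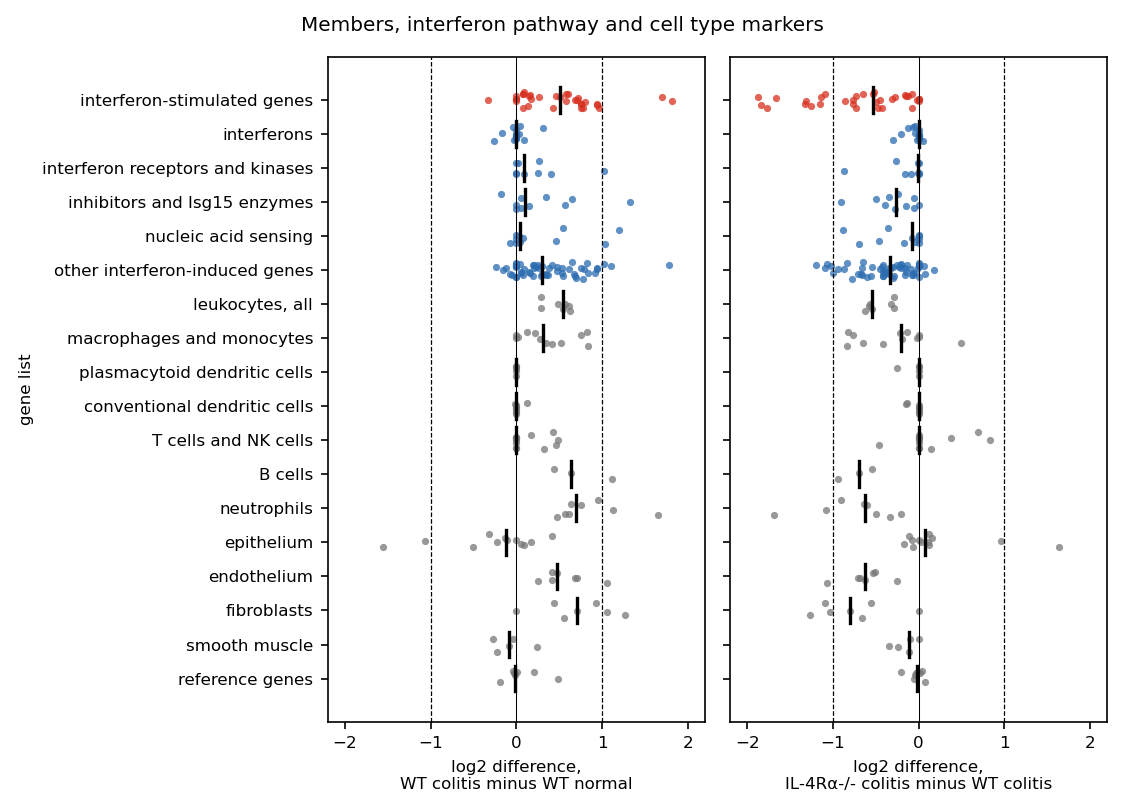
Log2 difference (x axes) of WT colitis from WT normal (left) and of IL-4Rα-/- colitis from WT colitis (right) for each gene of the members (red), of interferon pathway lists (blue, the regulators as "inhibitors and Isg15 enzymes") and of cell type markers and reference genes (grey), with black bars at each list's median and dashed lines at 2-fold. The exocrine pancreas list is not drawn. The members' medians are 0.51 and -0.53, those of general leukocyte markers 0.54 and -0.54, and those of interferons 0.00 and 0.00.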

How the data were processed

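RNA of the distal colon was pooled by group and hybridised to 3 arrays. For each of 28944 probe sets the deposited value was a log2 signal to 2 decimals. The methods name GeneChip Analysis Suite Software for expression values and median centring for the colours of a heat map, but the deposited columns had medians of 4.11, 4.18 and 4.11, not 0, and no algorithm of summarisation or normalization is named. The methods name the GeneChip array type Mouse Gene 1.0 ST, whereas the labels describe Cy3-labelled cRNA made with an Agilent kit. The probe sets were named through the GeneChip platform annotation, in which 21789 had 1 symbol, 1621 several and 5534 none.

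Differences between deposited log2 signals were computed without further normalization and counted past 2-fold. With 1 array per group no test was run, and the number of arrays limits the precision. Members and gene lists were chosen with earlier results of these data known. The text names all members past 2-fold with their signals, up to 3 others per role group, and from each other list at most 4 genes past 2-fold, besides receptor chains, Ifnb1, Ifng and Il4ra. A further gene of this rule is not reported here. Values outside this rule were added after they had been seen. They are Cmpk2 with its neighbour, Ifit3b, Ifit1bl2, Ifnl2, Ifna5, Ifnz, the shared Ifnl and Ifnz probe sets, Uba7, Ube2l6 and the whole OAS and GTPase families. Irf1, Irf8, Irf9, marker genes and the members that complete each group are also among them. Alternatives were quantile normalization, median centring, an offset of 32 on the linear scale, genes with a mean signal of at least 4, averaged probe sets of a gene, probe sets with several symbols and a 1.5-fold threshold. The counting and motif steps were tested on simulated data. Python 3.11.15, numpy 2.4.6, pandas 2.3.3 and matplotlib 3.10.9 were used.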

Additional observations from a re-analysis of the deposited data

Results flagged for a closer look

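Among the 6 mice of the IL-4Rα-/- colitis pool, 1 had a disease activity index of 3, apart from the others by 0.667 of the range of the group (critical value 0.625). The critical value is meant to be passed by chance in about 1 of 20 groups. The index is a coarse score with ties, so the rate is not known here. The array holds the pooled RNA, so the share of this mouse in the signals of interferon-stimulated genes could not be separated.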

How the results depend on the processing

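The count of members more than 2-fold below WT colitis in IL-4Rα-/- colitis was 10 under quantile normalization, median centring, the filter on dim genes, the mean of probe sets and the admission of probe sets with several symbols, and 7 with an offset of 32. With a 1.5-fold threshold, 16 members were lower in this comparison (3.33% of all genes), 14 exceeded WT normal in WT colitis (4.11%), and 5 lay below WT normal in IL-4Rα-/- colitis (0.813%). The offset of 32, which shrinks differences of dim genes, gave a median of 0.27 for WT colitis minus WT normal and 0 members more than 2-fold below WT normal in IL-4Rα-/- colitis. Leaving out members and genes with 3 equal values, an alternative chosen after the data were seen, gave 10 members lower between the colitis arrays, where 1.68% of genes were. For the members past 2-fold, 210 differences of single genes were recomputed. Of these, 191 moved by less than the spread of all genes whose 3 values were not all equal. The other 19 moved by more, all 19 under the offset. No direction reversed in any of these. The results rest on 1 array per group of pooled RNA, so the spread between mice or arrays is unknown and a difference of 1 array cannot be told apart from a difference of its group. Signals below 4 are limited by background.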
